A study of Homo sapiens with 6 samples.

Results

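Mitochondrial ribosomal protein genes were the 78 protein-coding genes of GENCODE release 29 (build GRCh38) whose symbols consist of MRPL or MRPS, a number and at most 1 letter. They were chosen by symbol alone, out of 19864 protein-coding genes on chromosomes 1 to 22 and X. By symbol, 27 of them were assigned to the small subunit and 51 to the large subunit. The large-subunit count includes MRPS18A and MRPS30, whose proteins sit in the large subunit in spite of the S in their symbols. The genes lie on 21 chromosomes, with no more than 8 on any of them.

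The mitochondrial ribosome translates the few messenger RNAs that the mitochondrial genome encodes, all of which specify subunits of the respiratory chain and of ATP synthase. Its RNAs come from mitochondrial DNA, whereas its proteins are encoded in the nucleus, made in the cytosol and imported. Many of the proteins have a counterpart in bacterial ribosomes, and the rest were added in the course of mitochondrial evolution. Promoters of nuclear genes for mitochondrial proteins are known for binding sites of the transcription factors NRF1, NRF2 (an ETS factor, also called GABP) and YY1.

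Transcription was mapped by precision run-on sequencing (PRO-seq), in which permeabilized cells extend nascent RNA by a biotin-labelled nucleotide and the labelled RNA is captured and sequenced. All 6 libraries came from untreated K562, an established human leukaemia cell line. They formed 3 groups of 2 biological replicates, taken from cultures at least 3 passages apart: PRO-seq 1M used the established protocol with 1M cells as input, qPRO-seq 1M a shortened protocol with that same input, and qPRO-seq 250k the shortened protocol with 250k cells. The established protocol used 3 affinity purifications and the shortened protocol used 1, and the libraries had 11, 11 and 14 cycles of PCR in the order of the groups. The data are 3 lists of peaks called by dREG, which recognises active regulatory elements by the shape of the run-on signal on both strands.

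Each list stands for both replicates of its group. There was therefore no spread between replicates, no difference between lists could be tested, and the read depth behind a list is unknown. On chromosomes 1 to 22 and X, 24707 peaks were listed for PRO-seq 1M, 38177 for qPRO-seq 1M and 15562 for qPRO-seq 250k. Where 3 values are given without names, they follow this order of the lists. As a limited look at the label, which does not test the identity of the line, 7 erythroid genes known to be transcribed in K562 were looked up (GATA1, TAL1, LMO2, KLF1, HBG1, HBG2 and HBE1). All 7 had a peak at a transcript start in each 1M list, and 6 had one at 250k, where LMO2 lacked it.

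Most mitoribosomal genes carried a called promoter. A start peak is a peak that lies within 500 bp of any annotated transcript start of the gene. By this definition 71 of the 78 genes (91.0%) had a start peak in PRO-seq 1M, where 52.9% of all protein-coding genes had one. In qPRO-seq 1M the number was again 71 (91.0%), against 54.5% of all protein-coding genes. In qPRO-seq 250k it was 67 (85.9%), against 44.0%. A start peak was present in all 3 lists for 65 of the genes (83.3%, against 43.1% of all protein-coding genes) and in no list for 5 (6.41%, against 43.5%).

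These shares were close to those of the genes for the cytosolic ribosome and for respiratory complex I. Of 77 cytosolic ribosomal protein genes, 93.5%, 93.5% and 92.2% had a start peak in the 3 lists. Of 37 complex I subunit genes, the shares were 89.2%, 94.6% and 83.8%. Within the mitoribosome, 48, 48 and 46 of the 51 large-subunit genes and 23, 23 and 21 of the 27 small-subunit genes had a start peak in the 3 lists. Among the 46 genes whose proteins have a bacterial counterpart the numbers were 44, 43 and 41, and among the 32 without one they were 27, 28 and 26. The absent genes were thus spread over both subunits and both origins.

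The score that dREG gives a peak has no unit and was compared only within a list, as a percentile in which the lowest peak lies near 0 and the highest near 100. A gene with several start peaks was represented by the one with the top score. The median percentile over the mitoribosomal genes that had a start peak was 79.8 in PRO-seq 1M, 83.3 in qPRO-seq 1M and 73.6 in qPRO-seq 250k. The same medians over all protein-coding genes with a start peak were 76.4, 80.7 and 68.2. Start peaks above the median score of their list were held by 60 of 71 (84.5%), 66 of 71 (93.0%) and 52 of 67 (77.6%) of the mitoribosomal genes, against 81.2%, 84.3% and 70.1% of protein-coding genes. The family's medians were thus a few points higher, by differences that were not tested. In PRO-seq 1M its quartiles were lower, at 53.9 and 87.3 against 57.3 and 89.2. They were 66.6 and 91.5 against 62.8 and 91.2 in qPRO-seq 1M, and 52.3 and 83.3 against 44.7 and 85.3 at 250k. The larger difference lay in how many of the genes had a peak at all.

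**Figure D1:**
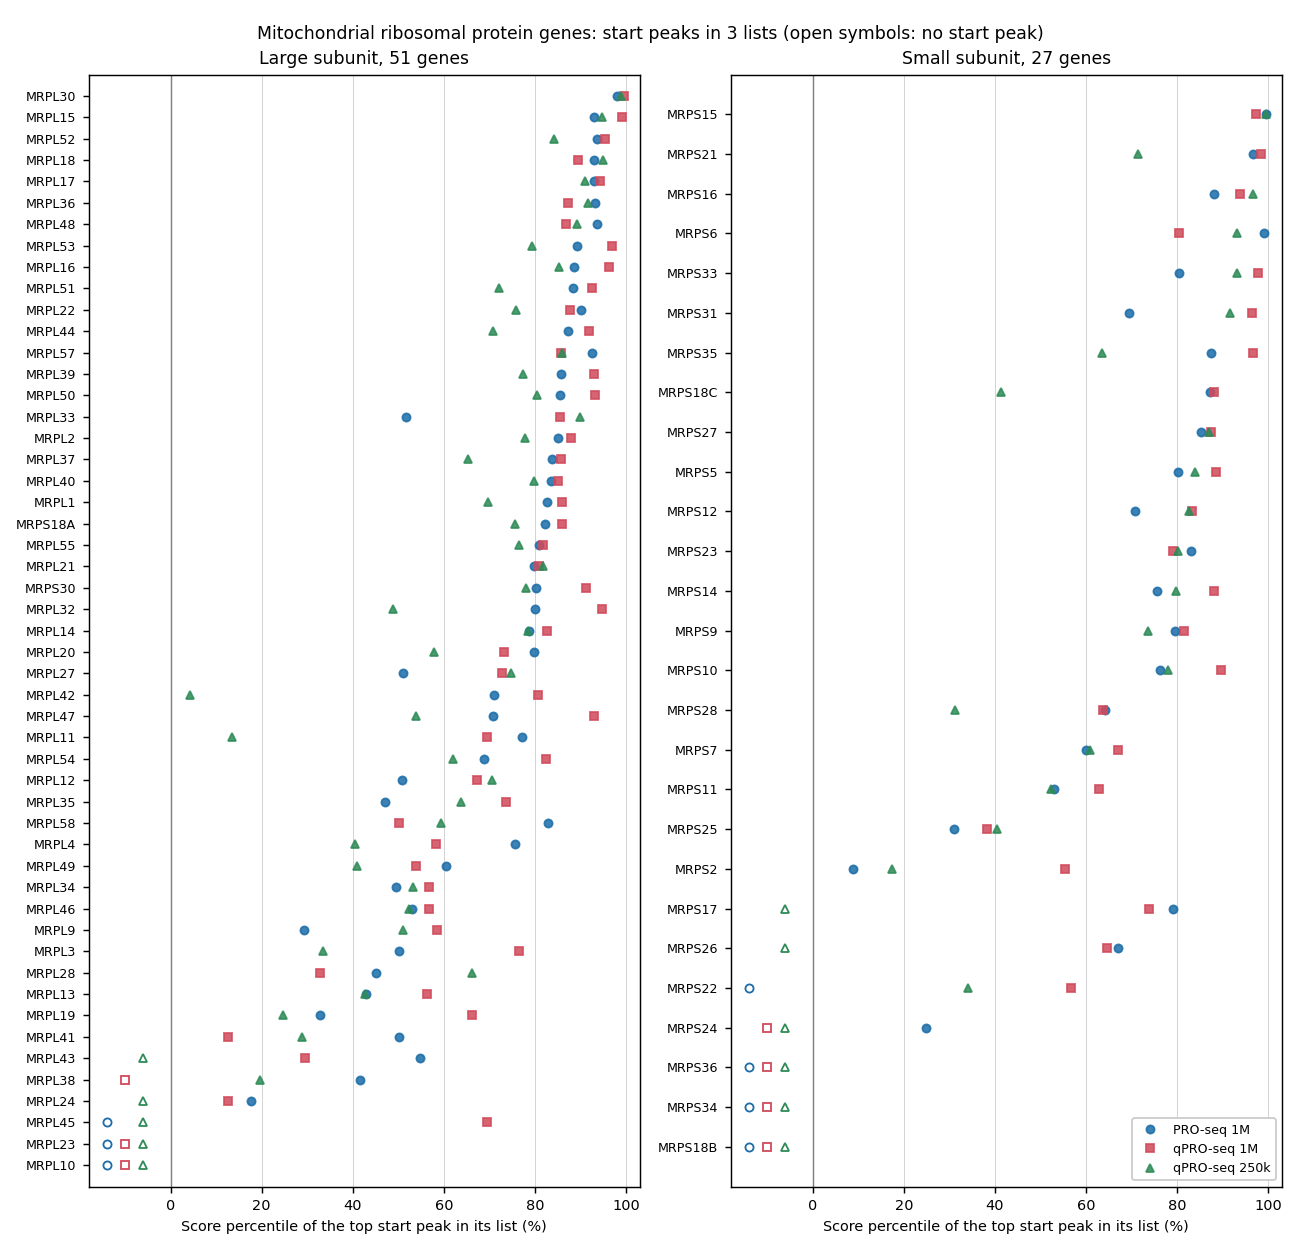
Score percentile (%) of the top start peak of each mitoribosomal gene within its list, with large-subunit genes on the left and small-subunit genes on the right. Blue circles are PRO-seq 1M, red squares qPRO-seq 1M and green triangles qPRO-seq 250k, and open symbols left of 0 mark genes with no start peak in that list. Most genes lie above 50 in every list, MRPL30 and MRPS15 stand at the top, and 5 genes have open symbols alone.

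The plot of percentiles by gene shows how wide the family's range was. Of the 65 genes with a start peak in all 3 lists, 48 (73.8%) were above percentile 50 in each list, 29 (44.6%) above 75 and 4 (6.15%) above 90. For all 8566 protein-coding genes with a start peak in all 3 lists, those shares were 68.3%, 35.5% and 10.8%. These counts take a gene only where every list passed the mark.

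**Figure D2:**
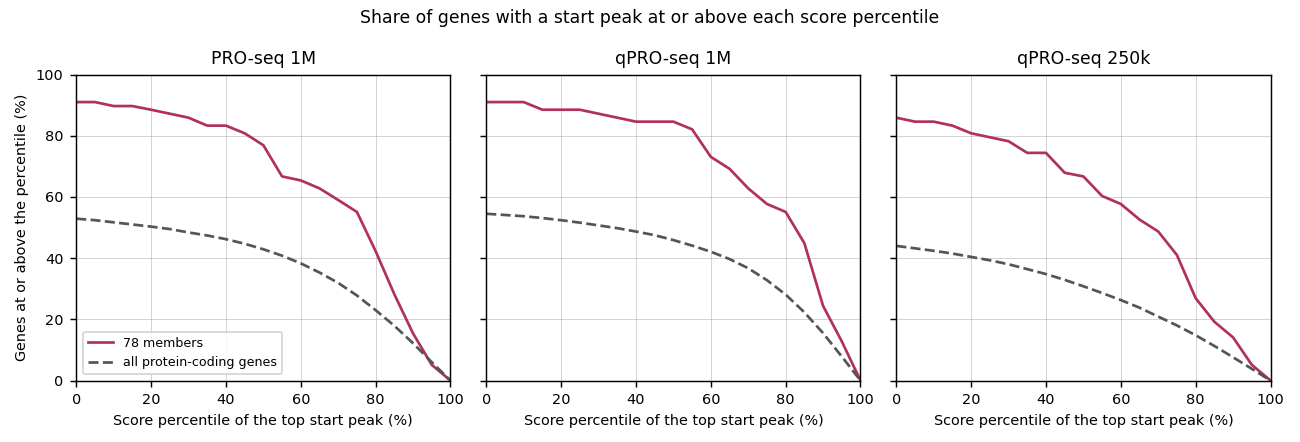
Share of genes (%) that had a start peak at or above each score percentile (%), for the 78 mitoribosomal genes (solid line) and all 19864 protein-coding genes (dashed line), 1 panel per list. The solid line starts at 91.0%, 91.0% and 85.9%, far above the dashed line, and the 2 lines draw closer at high percentiles. At percentile 95 the shares were 5.13%, 12.8% and 5.13% for the family, against 6.0%, 7.84% and 3.83%.

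The 4 genes above percentile 90 in every list were MRPL30, MRPS15, MRPL15 and MRPL17, whose proteins all have bacterial counterparts. MRPL30 had percentiles of 98.1 in PRO-seq 1M, 99.6 in qPRO-seq 1M and 98.9 in qPRO-seq 250k. MRPS15, a small-subunit protein that binds the ribosomal RNA, had 99.5, 97.3 and 99.5. Both were near the top of each list, and their order changed from list to list. MRPL15 had 93.0, 99.1 and 94.7, and MRPL17 had 92.9, 94.2 and 91.0. The next genes by their lowest percentile were MRPL18 (92.9, 89.4 and 95), MRPS16 (88.2, 93.7 and 96.7) and MRPL36 (93.3, 87.3 and 91.7).

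Other genes ranked among the top 5 of 1 or 2 lists. MRPS6 had 99.1 in PRO-seq 1M, 80.5 in qPRO-seq 1M and 93.1 in qPRO-seq 250k, and its top peak also reached the start of SLC5A3, a transporter gene on the same strand. MRPS21 had 96.6, 98.5 and 71.5, MRPL52 had 93.6, 95.5 and 84.2, and MRPS33 had 80.4, 97.7 and 93.1. For these 4 genes the weakest list lay 11.3 to 27 points below the strongest, so that a high rank in 1 list did not fix the rank in the others.

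The sequence around the start of MRPS15 is shown because the gene ranked highest in the family in 2 lists and its window holds none of the ETS, NRF1 and YY1 motifs described further on. The window runs from 120 bases before the RefSeq start to the 30th base from it, at chr1:36464355-36464504 (minus strand) in build GRCh38.p14, and is written 5′ to 3′ along the gene.
MRPS15: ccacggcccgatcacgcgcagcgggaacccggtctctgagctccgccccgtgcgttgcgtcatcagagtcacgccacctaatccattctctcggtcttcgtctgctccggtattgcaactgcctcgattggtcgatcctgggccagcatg
The top peaks of MRPS15 covered this window in all 3 lists, at chr1:36463841-36464960 in PRO-seq 1M, chr1:36464231-36464660 in qPRO-seq 1M and chr1:36463991-36464930 in qPRO-seq 250k. They were 1120, 430 and 940 bp wide. In qPRO-seq 1M the gene had 3 start peaks where each other list had 1.

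At the lower end, MRPS2, a core protein of the small subunit, had percentiles of 8.9, 55.3 and 17.4. Its top peak lay 298, 208 and 268 bp from its nearest start. It lay 294, 144 and 204 bp from a start of C9orf116 on the opposite strand. MRPL24 had 17.6 and 12.7 in the 1M lists and no start peak at 250k. MRPL41, a large-subunit protein without a bacterial counterpart, had 50.2, 12.6 and 28.9. The centres of these top peaks lay downstream of the nearest GENCODE start, at 367, 357 and 347 bp for MRPS2, 190 and 220 bp for MRPL24, and 661, 401 and 661 bp for MRPL41. For MRPL41 the distance depends on the annotation, as its RefSeq start lies 680 bp from the nearest GENCODE start. Relative to the RefSeq start the centres lay at −19, −279 and −19 bp, with upstream negative. For MRPL24 the RefSeq start is another GENCODE start, further inside the gene. Relative to it, the MRPL24 centres lay at −312 and −282 bp in the 1M lists. MRPS25 had 31.0, 38.3 and 40.4, MRPL9 had 29.3, 58.5 and 51.1, and MRPL28 had 45.2, 32.9 and 66.1. MRPL43 had 54.7 and 29.6 and MRPL38 had 41.6 and 19.7 in the 2 lists in which each had a start peak. MRPL19 had 32.9, 66.2 and 24.6.

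Across the 71 genes found in at least 2 lists, the highest and lowest percentile of a gene differed by 1.5 to 76.4 points, with a median of 14.3. The difference was over 50 points for 2 genes. MRPL42, a large-subunit protein without a bacterial counterpart, had 71.1 in PRO-seq 1M, 80.6 in qPRO-seq 1M and 4.2 in qPRO-seq 250k. MRPL11, which forms the base of the stalk that recruits translation factors, had 77.2, 69.4 and 13.4. In both cases the 2 lists from 1M cells were high and the 250k list was low. The called interval was also shorter at 250k, at 300 bp against 570 and 940 bp for MRPL42 and at 250 bp against 480 and 570 bp for MRPL11. The share of all protein-coding genes that differed by over 50 points is not given here.

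Ranks were otherwise shared between lists to a moderate degree. Spearman's rho of the percentiles was 0.76 between PRO-seq 1M and qPRO-seq 1M (69 genes), 0.68 between PRO-seq 1M and qPRO-seq 250k (66 genes) and 0.67 between the qPRO-seq lists (66 genes). Over all protein-coding genes these values were 0.72, 0.64 and 0.66, so the family was no exception. The points are genes of the same cell line and some share a peak, so these are descriptions. The top peaks of the same gene overlapped for 67 of 69 genes (97.1%) between the 1M lists and for 61 of 66 (92.4%) in each comparison with the 250k list. Their centres lay a median of 30, 40 and 40 bp apart. The percentile was higher in qPRO-seq 1M than in PRO-seq 1M for 49 of 69 genes (71.0%), against 61.1% of all protein-coding genes. A percentile depends on the length of its list, which was greatest for qPRO-seq 1M. With every list limited to its 15562 best-scored peaks, as many as the shortest list has, PRO-seq 1M kept a start peak for 65 of the 78 genes (83.3%) and qPRO-seq 1M for 57 (73.1%), where 47.0% and 42.4% of all protein-coding genes kept one.

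Called promoters of the family had the usual width and sat close to the start. The top start peak had a median width of 540 bp in PRO-seq 1M, 540 bp in qPRO-seq 1M and 470 bp in qPRO-seq 250k, against 550, 540 and 470 bp for all protein-coding genes. Cytosolic ribosomal protein genes had wider peaks, with medians of 675, 600 and 530 bp. The centre lay a median of 20, 19 and 20 bp upstream of the nearest annotated start, where the medians for all protein-coding genes were 32, 35 and 34 bp upstream. It was within 100 bp of a start for 77.5%, 77.5% and 73.1% of the mitoribosomal genes with a start peak, against 68.2%, 65.2% and 69.5% of protein-coding genes. Among cytosolic ribosomal protein genes this share was 79.2%, 83.3% and 83.1%, and among complex I genes 72.7%, 65.7% and 77.4%. The family's peaks were thus of ordinary size. Their share near a start was above that of all protein-coding genes but below that of cytosolic ribosomal protein genes in each list.

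**Figure D3:**
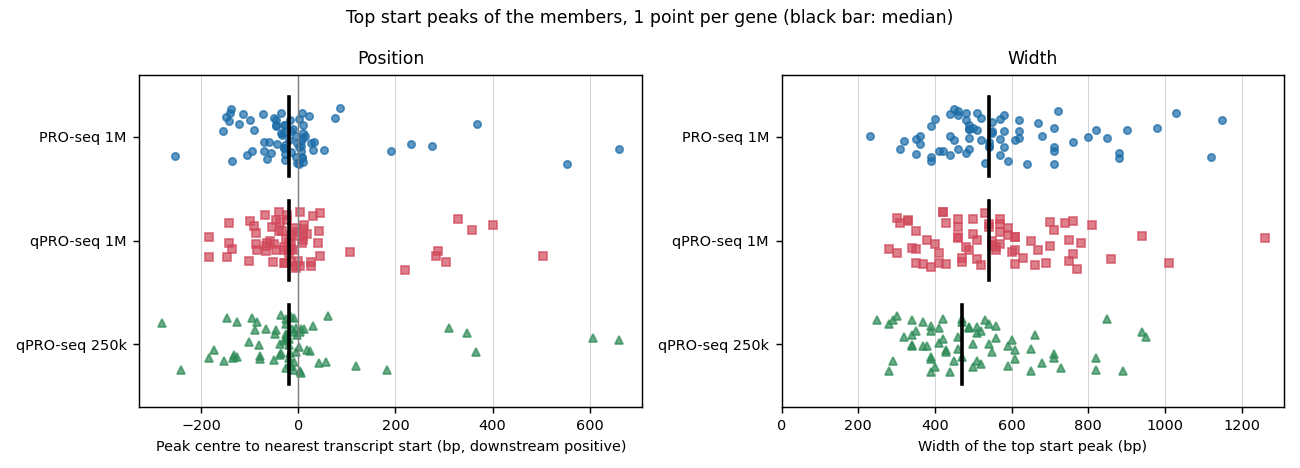
Left, distance in bp from the centre of each gene's top start peak to its nearest annotated transcript start, with downstream positive. Right, width of that peak in bp. Each point is 1 mitoribosomal gene and the black bar is the median, which lies just upstream of the start in all 3 lists and at 540, 540 and 470 bp for width.

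In qPRO-seq 1M, the widest top start peaks were those of MRPS21 (1260 bp), MRPL30 (1010 bp), MRPL42 (940 bp), MRPS18A (860 bp) and MRPS12 (810 bp), the last being the protein at the decoding centre. The narrowest were those of MRPL46 (280 bp), MRPL12 (300 bp), MRPL43 (300 bp), MRPL41 (310 bp), and MRPL34 and MRPL58 (330 bp each). MRPL12 forms the mobile stalk of the large subunit, and MRPL58 is a peptidyl-tRNA hydrolase that rescues stalled ribosomes. Width was not stable between lists for all of them. MRPL46 had widths of 450, 280 and 820 bp and MRPS21 had 980, 1260 and 520 bp.

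Peak centres more than 300 bp from the nearest start were found for 7 genes in at least 1 list. They included MRPS2 and MRPL41, already described, and MRPL54, with 275, 305 and 365 bp downstream. For MRPL34 the centres lay 553, 503 and 62 bp downstream, and in the 1M lists the top peak contained a start of ABHD8 on the opposite strand while lying 384 and 354 bp from the nearest start of MRPL34. Another 3 genes had a distant centre in 1 list alone: MRPL14 in qPRO-seq 250k (607 bp), MRPL19 in qPRO-seq 250k (311 bp) and MRPL2 in qPRO-seq 1M (328 bp). All these distances are downstream of the nearest GENCODE start. The matching share of all protein-coding genes is not given here, so the count of 7 describes the family alone.

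In every list, 13 genes had 2 or more start peaks: MRPL1, MRPL14, MRPL18, MRPL36, MRPL40, MRPL51, MRPL53, MRPL54, MRPL57, MRPS6, MRPS18C, MRPS28 and MRPS30. Such peaks can lie at different annotated starts and need not be parts of 1 promoter. The starts of MRPL1 span 45805 bp and those of MRPS6 span 50729 bp. MRPL40 had 5, 5 and 3 start peaks and MRPL36 had 4, 6 and 5. MRPL36 has annotated starts at more than 1 site, and its top peak in each list lay more than 1 kb inside the gene record. Over the family, 47.9%, 67.6% and 23.9% of genes with a start peak had 2 or more, against 49.6%, 61.6% and 32.7% of protein-coding genes. The share of protein-coding genes with 2 or more in every list is not given here.

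Many mitoribosomal genes stand head to head with another gene. A divergent partner is a protein-coding gene on the other strand that starts within 1000 bp and is transcribed away from the gene in question. Such a partner was annotated for 32 of the 78 genes (41.0%), against 15.5% of all protein-coding genes. The share was 29.9% for cytosolic ribosomal protein genes and 48.6% for complex I genes. The 32 genes form 33 distinct pairs, in which the facing starts lay a median of 51 bp apart, against 92 bp over the 1618 pairs of all protein-coding genes. The partner's annotation comes from GENCODE and does not depend on the peak lists.

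The partners had varied functions, and several also serve mitochondria. MRPS11 and MRPL46 face each other at 34 bp and join a small-subunit and a large-subunit gene. NDUFS6 (34 bp from MRPL36) and NDUFB5 (36 bp from MRPL47) encode subunits of complex I. SARS2 (48 bp from MRPS12) encodes the mitochondrial seryl-tRNA synthetase, TWNK (21 bp from MRPL43) the helicase of mitochondrial DNA, and PTCD2 (106 bp from MRPS27) a mitochondrial RNA-binding protein. The closest pairs were MRPL27 with EME1 and MRPL49 with FAU, at 6 bp, and MRPL11 with PELI3 and MRPL21 with IGHMBP2, at 7 bp. FAU encodes a ubiquitin-like protein fused to a protein of the cytosolic ribosome.

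Pairs with other functions made up the rest. MRPL9 faced OAZ3 and MRPL13 faced MTBP at 14 bp. MRPL32 faced the proteasome gene PSMA2 at 15 bp and AC010132.3 at 26 bp, and MRPL30 faced MITD1 at 21 bp. MRPL57 faced SKA3, of the spindle and kinetochore complex, and MRPS7 faced GGA3, both at 43 bp. The chaperonin gene TCP1 stood 63 bp from MRPL18, the condensin gene NCAPD2 61 bp from MRPL51, the amino acid transporter gene SLC7A7 59 bp from MRPL52 and the kinesin light chain gene KLC4 51 bp from MRPL2. HELQ (76 bp from MRPS18C) encodes a DNA helicase and HIRA (169 bp from MRPL40) a histone chaperone. MRPL37 faced AL357673.1 at 94 bp and CYB5RL at 131 bp, MRPL14 faced TMEM63B at 97 bp, and MRPL50 faced ZNF189 at 259 bp. Another 4 genes had antisense noncoding partners alone: MRPL12, MRPS16 (DNAJC9-AS1), MRPS30 (MRPS30-DT) and MRPS35.

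A shared peak, which lies within 500 bp of both facing starts, was present for 26 of the 32 genes (81.2%) in PRO-seq 1M, for 28 (87.5%) in qPRO-seq 1M and for 26 (81.2%) in qPRO-seq 250k. Over all 3087 protein-coding genes with a divergent partner, 77.2%, 78.9% and 69.3% had a shared peak. A dREG peak, which is called from reads of both strands, does not assign its score to either gene of a pair. The top start peak was a shared one for 25 of the 26 genes in PRO-seq 1M, for 23 of 28 in qPRO-seq 1M and for 23 of 26 in qPRO-seq 250k. MRPL36 was an exception in each list, as its top peak was not among the peaks within 500 bp of both facing starts.

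**Figure D4:**
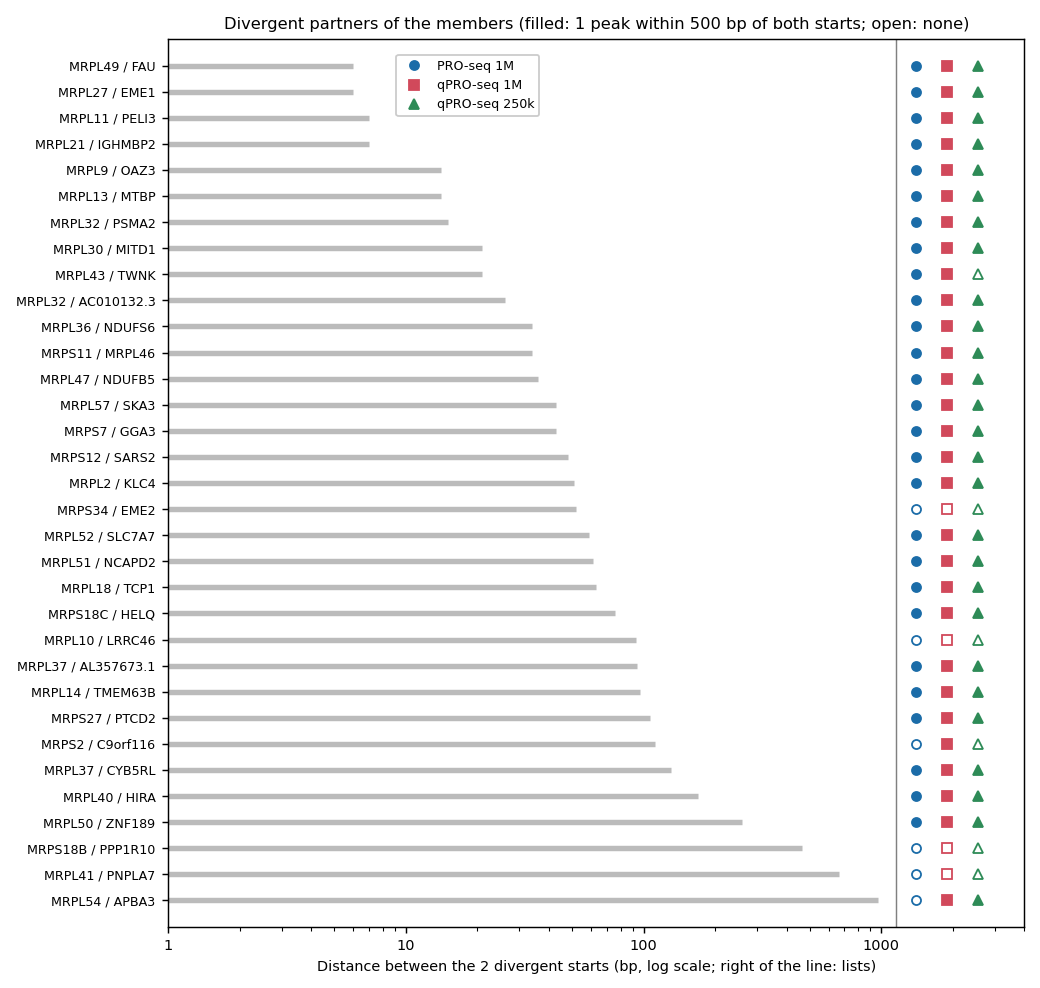
Distance in bp (log scale) between the facing starts of each mitoribosomal gene and its divergent protein-coding partner, as bars that begin at 1 bp, with each of the 33 pairs drawn once. To the right of the line, filled symbols mark a peak within 500 bp of both starts and open symbols mark none, for PRO-seq 1M (circle), qPRO-seq 1M (square) and qPRO-seq 250k (triangle). Pairs without a shared peak in any list are those of MRPS34, MRPL10, MRPS18B and MRPL41.

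The pair of MRPL46 and MRPS11 on chromosome 15 had 1 peak in each list that contained both starts. In PRO-seq 1M this peak lay at chr15:88467141-88467590, in qPRO-seq 1M at chr15:88467261-88467540 and in qPRO-seq 250k at chr15:88467181-88468000. Its percentile was 53.0, 56.7 and 52.3. In qPRO-seq 1M the top peak of MRPS11 was a different one, 770 bp wide with percentile 62.9, centred 287 bp downstream of an MRPS11 start. The sequence between and around the starts is given for the window chr15:88467359-88467508 (minus strand), build GRCh38.p14, written 5′ to 3′ along MRPL46, with a match to the YY1 motif in capitals.
MRPL46: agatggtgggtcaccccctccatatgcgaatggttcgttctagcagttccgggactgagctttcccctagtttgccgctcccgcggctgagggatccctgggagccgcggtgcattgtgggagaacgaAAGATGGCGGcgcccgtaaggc
The window reaches past the start of MRPS11 at position 88467453.

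Some pairs shared no peak in at least 1 list. For MRPS34 with EME2 (52 bp), MRPL10 with LRRC46 (93 bp) and MRPS18B with PPP1R10 (465 bp), neither gene had a start peak in any list. MRPL41 and PNPLA7 (665 bp) shared no peak in any list, and MRPL54 and APBA3 (965 bp) shared a peak in the 2 qPRO-seq lists alone. MRPS2 and C9orf116 (112 bp) shared a peak at their facing starts in qPRO-seq 1M alone, and MRPL43 and TWNK in both 1M lists. The top peak of MRPS2 lay within 500 bp of another C9orf116 start in every list.

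Mitoribosomal genes had start peaks in similar shares whether or not they had a divergent partner. Genes with and without a partner had one in 90.6% and 91.3% of cases in PRO-seq 1M, in 90.6% and 91.3% in qPRO-seq 1M, and in 87.5% and 84.8% in qPRO-seq 250k. Over all protein-coding genes, those shares were 83.0% and 47.3%, 84.1% and 49.0%, and 76.0% and 38.1%. Median percentiles within the family were 78.8 with a partner and 80.0 without one in PRO-seq 1M, 83.3 and 83.7 in qPRO-seq 1M, and 68.7 and 75.7 in qPRO-seq 250k.

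Promoter sequences were taken from RefSeq (build GRCh38.p14), from 250 bases before a gene's start to 50 after it, for the 69 of 78 mitoribosomal genes that matched the table by symbol. Of these 69 starts, 65 lay within 100 bp of a GENCODE start of the same gene. Such a start need not be the one at the called peak. For MRPL11, MRPL34, MRPL54 and MRPS2, the top start peak covered no base of the promoter window in any of the 3 lists. For MRPL34 its centre lay 10847, 10797 and 13157 bp downstream of the RefSeq start. These genes were kept in the motif shares and in the median percentiles by motif. How often this occurred in the comparison sets is not given here. The comparison sets were the 14867 protein-coding genes in the table and the 6821 of them that had a start peak in all 3 lists. Motifs were searched on both strands as exact letters. A match describes the sequence and does not show that a factor was bound.

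Motifs of ETS factors and of YY1 were more frequent in the family than in either comparison set, by counts that were not tested. The ETS core CCGGAAG was found in 29 of the 69 windows (42.0%), against 14.4% of protein-coding windows and 22.8% of those with a start peak in all 3 lists. The YY1 motif, 10 letters long and printed in capitals in sequences further on, was found in 13 (18.8%), against 2.0% and 3.45%. The NRF1 motif, 10 letters of which 1 is free, was found in 8 (11.6%), against 8.64% and 13.9%, so its share was between the 2 comparison values. At least 1 of these motifs was present in 43 windows (62.3%), against 22.5% and 35.7%.

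The other motifs searched gave no such excess. The GC box GGGCGG was found in 60.9% of the family's windows, against 59.4% and 72.5%. The NF-Y box CCAAT was found in 20 windows (29%), against 36.3% and 38.2%, and the E-box CACGTG in 8.7%, against 8.93% and 10.7%. The TATA box TATAAA was found in 2 windows (2.9%), those of MRPL54 and MRPS15, against 9.38% and 4.84%. No window held the CRE TGACGTCA, against 2.59% and 3.89%. Cytosolic ribosomal protein genes had the ETS core in 33.9% and the YY1 motif in 4.84% of 62 windows. Complex I genes had them in 16.1% and 12.9% of 31 windows and had the NRF1 motif in 19.4%.

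**Figure D5:**
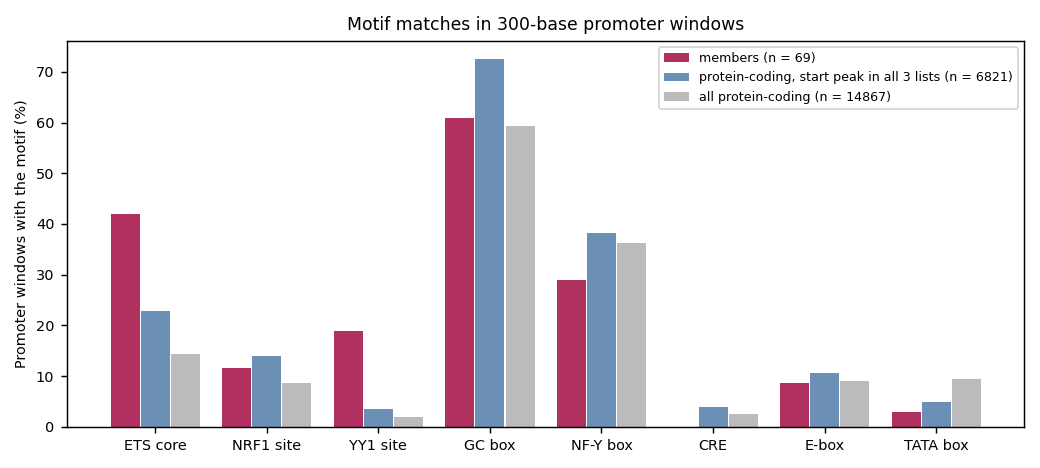
Share of promoter windows (%) of 300 bases that hold each motif on either strand, for 69 mitoribosomal genes, 6821 protein-coding genes with a start peak in all 3 lists and 14867 protein-coding genes. The red bar of the family is the highest of the 3 for the ETS core (42.0%) and the YY1 site (18.8%).

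The YY1 matches shared a position. In 10 of the 13 genes the first base of the motif lay 0 to 40 bases downstream of the RefSeq start, with the start base counted as 0 and the motif on the gene's own strand. This range was chosen after the positions were seen. The 10 genes are 14.5% of the family's windows, against 1.39% of protein-coding windows and 2.43% of those with a start peak in all 3 lists. The clustering itself was common to other genes: of windows with the motif, 76.9% in the family, 69.4% among protein-coding genes and 70.6% among those with a start peak in all 3 lists had it in that range on the gene's own strand.

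The 7 genes in which the whole motif fell within 30 bases of the start are shown to make the common placement visible. Each window holds 20 bases before the start and 30 from it, written 5′ to 3′ along the gene, with the motif in capitals, so that the start is the 21st base. The windows lie at chr17:75904855-75904904 (minus strand) for MRPL38, chr12:93467494-93467543 (plus strand) for MRPL42, chr15:88467359-88467408 (minus strand) for MRPL46, chr6:42217832-42217881 (minus strand) for MRPS10, chr6:43687762-43687811 (minus strand) for MRPS18A, chr7:43869488-43869537 (minus strand) for MRPS24 and chr5:44808927-44808976 (plus strand) for MRPS30 of GRCh38.p14.
MRPL38: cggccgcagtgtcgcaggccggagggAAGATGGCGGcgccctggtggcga
MRPL42: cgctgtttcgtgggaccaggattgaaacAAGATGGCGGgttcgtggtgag
MRPL46: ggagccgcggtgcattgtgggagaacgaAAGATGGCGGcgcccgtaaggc
MRPS10: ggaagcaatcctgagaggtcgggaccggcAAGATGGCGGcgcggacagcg
MRPS18A: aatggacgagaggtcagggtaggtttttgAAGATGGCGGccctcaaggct
MRPS24: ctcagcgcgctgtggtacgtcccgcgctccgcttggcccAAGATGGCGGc
MRPS30: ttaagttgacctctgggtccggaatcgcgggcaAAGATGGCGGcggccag
The first base of the motif stands at position 6 in MRPL38, 8 in MRPL42 and MRPL46, 9 in MRPS10 and MRPS18A, 13 in MRPS30 and 19 in MRPS24. The other 3 genes with the motif in that range were MRPL50 and MRPS18B (position 23) and MRPL22 (position 35). The 7 genes had unequal peaks: MRPS30 had percentiles of 80.3, 91.2 and 78.0 and MRPS18A had 82.2, 86.0 and 75.7, whereas MRPS24 had a start peak in PRO-seq 1M alone, at percentile 24.8.

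The ETS matches lay mostly just upstream of the start. The 29 genes held 39 matches, with a median position of 22 bases before the start. A match within 100 bases upstream was present in 22 genes, which are 31.9% of the family's windows, against 8.73% of protein-coding windows and 14.0% of those with a start peak in all 3 lists. Of the genes with 2 or more matches near the start, 5 are shown, with 100 bases before the start and 30 from it and with each match in capitals, as CCGGAAG or as its reverse complement CTTCCGG. The windows lie at chr1:1407264-1407393 (minus strand) for MRPL20, chr17:50373155-50373284 (minus strand) for MRPL27, chr1:150293761-150293890 (plus strand) for MRPS21, chr3:139343894-139344023 (plus strand) for MRPS22 and chr16:1773105-1773234 (minus strand) for MRPS34.
MRPL20: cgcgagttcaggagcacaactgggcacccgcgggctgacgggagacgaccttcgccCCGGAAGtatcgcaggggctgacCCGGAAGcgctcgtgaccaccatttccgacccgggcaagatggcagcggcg
MRPL27: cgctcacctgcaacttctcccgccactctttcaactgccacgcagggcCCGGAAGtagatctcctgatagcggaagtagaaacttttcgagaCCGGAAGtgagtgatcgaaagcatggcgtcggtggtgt
MRPS21: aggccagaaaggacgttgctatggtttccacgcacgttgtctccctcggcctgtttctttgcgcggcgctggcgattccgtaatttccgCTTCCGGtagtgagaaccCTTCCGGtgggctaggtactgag
MRPS22: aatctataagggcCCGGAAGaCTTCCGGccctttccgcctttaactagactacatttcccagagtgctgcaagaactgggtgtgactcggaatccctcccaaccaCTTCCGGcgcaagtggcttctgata
MRPS34: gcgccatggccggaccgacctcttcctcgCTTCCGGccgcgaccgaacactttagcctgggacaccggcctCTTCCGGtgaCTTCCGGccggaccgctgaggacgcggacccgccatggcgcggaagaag
MRPS22 and MRPS34 each hold 3 matches. MRPS34 had no start peak in any list and MRPS22 had none in PRO-seq 1M, whereas MRPS21 ranked at 96.6 and 98.5 in the 1M lists. Whether the number of ETS matches bears on the peaks was not tested.

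The NRF1 motif was found in MRPL14, MRPL17, MRPL30, MRPL36, MRPL45, MRPL57, MRPS9 and MRPS33. It is shown for 3 genes that ranked high in all lists, with 120 bases before the start and 30 from it and with the motif in capitals. The second stretch of capitals in MRPL36 is the YY1 motif on the opposite strand. The windows lie at chr11:6683311-6683460 (minus strand) for MRPL17, chr2:99181064-99181213 (plus strand) for MRPL30 and chr5:1799808-1799957 (minus strand) for MRPL36.
MRPL17: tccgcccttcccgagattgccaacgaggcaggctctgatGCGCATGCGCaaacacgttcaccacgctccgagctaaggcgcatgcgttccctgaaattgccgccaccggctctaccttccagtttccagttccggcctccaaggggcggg
MRPL30: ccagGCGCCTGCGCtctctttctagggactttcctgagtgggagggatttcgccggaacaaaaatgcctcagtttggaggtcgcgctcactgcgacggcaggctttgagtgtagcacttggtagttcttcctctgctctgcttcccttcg
MRPL36: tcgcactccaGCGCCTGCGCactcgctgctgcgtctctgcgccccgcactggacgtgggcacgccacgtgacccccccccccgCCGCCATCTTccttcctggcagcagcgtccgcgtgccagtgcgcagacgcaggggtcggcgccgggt
The top peak of MRPL30 covered its window in every list, at chr2:99180811-99181530 in PRO-seq 1M, chr2:99180651-99181660 in qPRO-seq 1M and chr2:99180781-99181510 in qPRO-seq 250k. The median percentile of the 8 genes with the NRF1 motif was 92.5 in PRO-seq 1M (7 with a start peak), 86.5 in qPRO-seq 1M (8) and 91.0 in qPRO-seq 250k (7). For the other 61 genes it was 78.2 (58 with a start peak), 83.3 (57) and 70.8 (54). The difference rests on few genes and was not tested.

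The genes without a start peak fell into those absent from every list and those absent from 1 or 2. MRPL10, MRPL23, MRPS18B, MRPS34 and MRPS36 were absent from all 3. MRPL10 is the stalk protein that carries MRPL12, and MRPL23 lines the exit of the peptide tunnel. The protein of MRPS36 has since been described as a part of the α-ketoglutarate dehydrogenase complex and is now also named KGD4. MRPL24, MRPL43, MRPS17 and MRPS26 lacked a start peak in qPRO-seq 250k, MRPL38 in qPRO-seq 1M and MRPS22 in PRO-seq 1M. MRPS24 had a start peak in PRO-seq 1M alone and MRPL45 in qPRO-seq 1M alone.

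Several of these genes lay in long stretches without peaks. MRPS18B (chr6:30617709-30626395, plus strand) lay in a stretch without any peak of 4.95 Mb in PRO-seq 1M, from position 28616431 to 33570810, in which 178 protein-coding genes start. In qPRO-seq 1M the stretch was 2.2 Mb long with 50 genes, and in qPRO-seq 250k it was 5.08 Mb long with 181 genes. Ranked by the protein-coding genes they hold, these were the 1st, 3rd and 1st of all peak-free stretches of their lists. The stretch falls in the part of chromosome 6 that holds the major histocompatibility complex. The missing start peak of MRPS18B was thus shared by all 9 other protein-coding genes that start within 100 kb.

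MRPL45, whose protein tethers the ribosome to the inner membrane, lay in a peak-free stretch of chromosome 17 of 2.31 Mb with 30 protein-coding genes in PRO-seq 1M and of 3.16 Mb with 54 in qPRO-seq 250k. In qPRO-seq 1M it had a start peak at chr17:38296871-38297330, with percentile 69.4, and no other peak lay within 100 kb. MRPL23 lay in a stretch of chromosome 11 of 513, 304 and 522 kb, with 12, 6 and 13 genes, and none of its 3 neighbours within 100 kb had a start peak. The lists also hold peaks on alternate scaffolds, which are further versions of parts of the genome: 25, 66 and 16 on those of chromosome 6, 3, 15 and 2 on those of chromosome 17, and 0, 4 and 3 on those of chromosome 11. The part of the alternate scaffolds in the missing peaks was not tested.

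MRPS36 lay near the edge of a peak-free stretch of chromosome 5 of 871 kb with 11 protein-coding genes in PRO-seq 1M, of 62.6 kb with 2 in qPRO-seq 1M and of 2.7 Mb with 18 in qPRO-seq 250k. The nearest peak to its starts lay 770, 830 and 28050 bp away, so that a window of 1000 bp reaches it in the 1M lists. MRPS34 and MRPL10 lay in shorter stretches, of 71.7 to 76.2 kb and of 189710 to 200200 bp. The nearest peak to MRPS34 lay 9256, 7826 and 9316 bp away, and 4 of its 9 neighbours within 100 kb had a start peak in each list. For MRPL10 the nearest peak was 19257, 9087 and 19417 bp away, and 2, 3 and 2 of its 6 neighbours had a start peak.

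The promoter sequence of MRPS18B is shown as an example of a gene in a long stretch without peaks. The window of 120 bases before the RefSeq start and 30 from it, at chr6:30617720-30617869 (plus strand), ends inside the gene's YY1 match, which therefore is not in capitals.
MRPS18B: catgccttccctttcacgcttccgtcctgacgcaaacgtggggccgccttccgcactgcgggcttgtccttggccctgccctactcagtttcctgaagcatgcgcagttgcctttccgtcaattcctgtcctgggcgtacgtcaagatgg

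Of the 8 genes absent from 1 or 2 lists, MRPL24, MRPL38, MRPL43 and MRPS24 were below percentile 55 in each list that had them, and MRPL45 had 69.4 in its list. MRPS17 and MRPS26 were higher, with 79.2 and 73.9 for MRPS17 and 67.1 and 64.7 for MRPS26 in the 1M lists. At 250k the nearest peak was 12408 bp from MRPS17 and 113726 bp from MRPS26. MRPS22 had 56.6 and 34.1 in the qPRO-seq lists, and its PRO-seq 1M peak nearest to a start was 4309 bp away. The gene record of MRPS22 begins 338184 bp upstream of the centre of its top peak in qPRO-seq 1M and 338624 bp upstream in qPRO-seq 250k, where further starts are annotated.

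Other genes of mitochondrial gene expression were looked up for comparison, where 52.9%, 54.5% and 44.0% of all protein-coding genes had a start peak. Of 5 mitoribosomal protein genes with other symbols (AURKAIP1, CHCHD1, DAP3, GADD45GIP1 and PTCD3), 5 had one in each 1M list and 4 at 250k, where GADD45GIP1 lacked one. Of 15 genes for translation factors and related proteins, 14, 14 and 11 had one, and TSFM, the elongation factor that recharges TUFM, had none in any list. Of 21 genes for assembly and ribosomal RNA modification, 19, 20 and 17 had one, and the methyltransferase gene MRM1 had none in any list. Of 7 genes for mitochondrial transcription and DNA replication, 6, 6 and 4 had one. TFAM, which packages mitochondrial DNA and helps start its transcription, had percentiles of 91.4, 88.2 and 84.2. POLRMT, the mitochondrial RNA polymerase, had a start peak in PRO-seq 1M alone, at percentile 50.3.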

How the data were processed

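Run-on libraries were made from K562 cells in 3 groups of 2 replicates, assigned from the sample titles. The authors deposited 1 dREG peak list per group, without a header. Per the labels, it stands for both replicates. How the replicates were combined and which dREG version and thresholds were used is not given in the sources used here. The submitters' processing notes name fastp 0.20.0, Bowtie2 2.3.5.1, UMI-tools, deepTools 3.1.3 and build GRCh38 (hg38). Deposited columns are start, end, the authors' dREG score, a p-value between 0 and 0.05 of unstated adjustment, and the centre. Depth is unknown, since the lists hold no read counts.

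The build was checked by distance to GENCODE release 29 transcript starts: 68.1%, 54.2% and 73.5% of peaks in the PRO-seq 1M list and the 2 qPRO-seq lists (1M, then 250k) lay within 500 bp of a start, against 10.6%, 9.92% and 10.5% after a shift of 10 kb. Scores were turned into within-list percentiles by mean rank on chromosomes 1 to 22 and X. Peaks were joined to genes with Python 3.11.15, numpy 2.4.6, scipy 1.17.1 and pandas 2.3.3, and figures used matplotlib 3.10.9. The join was checked on simulated peaks. Subunit, partner and pathway lists were written by hand. Some marker genes of the cell line check are not reported here. Of 16 symbols for translation factors, 15 matched the annotation. The members and lists were chosen with earlier results of these data known. Genes named were those without a start peak in at least 1 list, the 5 highest and 5 lowest percentiles per list, those with a divergent partner, extreme widths in qPRO-seq 1M, centres over 300 bp from a start, percentiles differing by over 50 points, 2 or more start peaks in every list, and related genes without a start peak in any list. Others were chosen after their values were seen. Alternatives were windows of 250 and 1000 bp, the gene record's start alone, starts of protein-coding transcripts alone, a p of at most 0.01, lists of equal size, merging of peaks within 20 bp, and other rules for partners.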

Additional observations from a re-analysis of the deposited data

Results flagged for a closer look

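Peaks on alternate scaffolds were outside the chromosomes analysed and were flagged as a signal in data that no comparison used, where more than 3 were present on the scaffolds of a chromosome that holds a gene in a long peak-free stretch. For chromosome 6, which holds MRPS18B, there were 25 such peaks in PRO-seq 1M, 66 in qPRO-seq 1M and 16 in qPRO-seq 250k. They made up 1.69%, 2.72% and 1.58% of all peaks on chromosome 6 and its alternate scaffolds, against 0.178%, 0.378% and 0.18% over all chromosomes. For chromosome 17, which holds MRPL45, there were 15 in qPRO-seq 1M. For chromosome 11, which holds MRPL23, there were 4 in qPRO-seq 1M. The annotation used here covers no alternate scaffold, so whether any of these peaks lies at a copy of a mitoribosomal gene was not tested.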

How the results depend on the processing

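Of 68 values recomputed under alternative settings, 63 stayed within the range set around the main value. For shares this range was a counting interval and for medians the interval of the median. For numbers of genes it was a wide band set by a fixed factor, which does not measure sampling error. The band was 43.3 to 97.5 for genes with a start peak in all 3 lists and 21.3 to 48.0 for genes with a divergent partner. The other 5 follow. With the lists cut to the 15562 top-scored peaks, the share of mitoribosomal genes with a start peak in qPRO-seq 1M was 73.1%, and the median percentile was 68.6 in PRO-seq 1M and 67.7 in qPRO-seq 1M. That setting leaves fewer peaks by construction. With peaks within 20 bp merged, the median width was 670 bp in PRO-seq 1M and 810 bp in qPRO-seq 1M. The number of genes with a start peak in all 3 lists ranged from 53 to 65, and the number with a divergent partner from 30 to 36. No paired analysis was possible because each group has 1 list for both replicates, which also leaves no replicate to leave out. The depth is unknown, so the smallest signal that could have been called cannot be given.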

Other observations

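The family's promoters had a lower median GC content than either comparison set, as did those of cytosolic ribosomal protein genes (59.0%) and complex I genes (61.3%). The median GC content of the 300-base windows was 60.3% over 69 mitoribosomal genes, 63.0% over all protein-coding genes and 65.3% over those with a start peak in all 3 lists. The ratio of observed to expected CpG dinucleotides had a median of 0.879 in the family, against 0.768 and 0.867. Of the 10 windows of mitoribosomal genes that lacked a start peak in at least 1 list, 5 held the ETS core and 3 the YY1 motif. Their median GC content was 64.5%. Of the 59 windows of those with a start peak in all 3 lists, 24 held the ETS core and 10 the YY1 motif. The median GC content of these 59 was 60.3%. MRPL10, MRPL23 and MRPS36, absent from every list, had no window.

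Genes with and without the ETS core had median percentiles of 80.4 and 79.4 in PRO-seq 1M, 86.0 and 81.7 in qPRO-seq 1M, and 76.8 and 70.6 in qPRO-seq 250k. Genes with and without the YY1 motif had 80.2 and 79.5, 88.7 and 82.5, and 75.8 and 71.8. The medians cover only genes with a start peak. Such a peak was present for 12 of 13, 10 of 13 and 11 of 13 genes with the YY1 motif. Without the motif it was present for 53, 55 and 50 of 56 genes. These differences were not tested.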
